A study of Mus musculus with 14 samples.

Results

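RNA-Seq of mouse liver was examined for 10 genes that mark the endothelial cells of the liver: Stab1, Stab2, Lyve1, Pecam1, Cdh5, Emcn, Kdr, Tek, Vwf and Oit3. They were matched by gene name and make up 10 of the 54532 genes of the deposited table. All 10 passed the filter on low counts, which left 15118 genes to test. The study compared livers of WT mice with livers of mice without the mechanosensitive ion channel TRPV4 (TRPV4-KO) and of WT mice given a TRPV4 antagonist (GSK219), and all of these adult mice carried KPCY cells, mouse pancreatic cancer cells that carry a yellow fluorescent protein, which had been injected into the tail of the pancreas. There were 2 WT, 3 TRPV4-KO and 3 GSK219 livers, labelled as biological replicates.

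The mice called WT in the study were Piezo1 fl/fl mice, in which loxP sites flank part of Piezo1. TRPV4-KO mice lacked Trpv4 in all of their own cells, whereas the injected KPCY cells kept the gene. GSK219 stands for GSK2193874, which was given daily by orogastric gavage in cavitron. Whether the WT mice were gavaged with the carrier alone is not given in the sources used here, so the drug and the gavage cannot be told apart.

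Liver capillaries, the sinusoids, are lined by endothelial cells with open pores and no continuous basement membrane. These cells take up waste molecules from the blood through scavenger receptors such as stabilin-1 and stabilin-2. They also share with all blood vessels a set of junction proteins (PECAM-1, VE-cadherin) and of receptors for growth factors that keep vessels alive (VEGFR2, TIE2). TRPV4 itself is a calcium channel that opens on mechanical and osmotic stimuli and is found in several cell types, endothelium included.

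The 8 libraries held between 15567031 and 17395299 counts on genes. Levels are given in CPM, which are counts scaled to the size of the library after TMM normalization. Trpv4 was measured at 2.66 and 3.09 CPM in the WT livers, at 0.948, 0.324 and 1.33 CPM in the TRPV4-KO livers and at 1.26, 1.81 and 2.15 CPM in the GSK219 livers. Both WT livers were above every other liver, although the TRPV4-KO livers still held 15, 5 and 23 counts of the gene. The log2 fold change of WT over TRPV4-KO was 1.71 (SE 0.50, adjusted p = 0.161 by edgeR's quasi-likelihood test), so that Trpv4 itself did not pass the adjusted threshold in this design. In each group, 1 liver had Xist reads (between 13681 and 15754 counts, against at most 7 in the others), namely replicate 1 of WT and replicate 3 of both TRPV4-KO and GSK219. This division runs through several of the marker levels and is given beside them. The paper states that mice of both sexes were used and that no differences between the sexes were seen. Xist counts were the only reading of sex used here.

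Sequence upstream of the start site is shown for Stab1 and Stab2, the scavenger receptor pair with the highest CPM of the 10, and for Kdr, which differed least between WT and the TRPV4-KO group among the members that were higher in WT. The RefSeq promoter table (GRCm38.p6) had entries for 5 of the 10 members (Stab1, Stab2, Kdr, Tek and Emcn). The 250 bases before the RefSeq start were searched on both strands for AGGAAG, the core sequence that is bound by factors of the ETS family. Factors such as Gata4 were represented by the core sequence AGATAA, and those of the Sox family by the core sequence AACAAT. Capitals mark an ETS match on either strand, where the other strand reads CTTCCT. The deposited genes begin before the RefSeq start by 83 bases for Stab2 and 3 bases for Kdr, and these bases are not shown.
Stab1, chr14:31168642-31168891, minus strand: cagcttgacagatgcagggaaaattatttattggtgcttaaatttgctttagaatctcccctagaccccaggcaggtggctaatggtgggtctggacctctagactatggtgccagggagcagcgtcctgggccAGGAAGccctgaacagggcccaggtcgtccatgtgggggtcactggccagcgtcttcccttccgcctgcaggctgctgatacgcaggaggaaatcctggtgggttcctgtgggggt
Stab2, chr10:87008026-87008192, minus strand: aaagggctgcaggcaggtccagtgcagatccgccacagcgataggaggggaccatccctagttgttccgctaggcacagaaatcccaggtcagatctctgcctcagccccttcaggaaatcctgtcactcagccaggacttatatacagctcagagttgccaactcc
Kdr, chr5:75978459-75978705, minus strand: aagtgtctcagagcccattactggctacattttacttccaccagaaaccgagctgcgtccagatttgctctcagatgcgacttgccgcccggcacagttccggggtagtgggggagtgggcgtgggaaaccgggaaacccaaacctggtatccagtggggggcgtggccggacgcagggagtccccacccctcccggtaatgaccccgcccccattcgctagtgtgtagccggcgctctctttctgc
Stab1 and Stab2 each held 1 ETS match, which began at positions -116 and -40 counted back from the RefSeq start, and the Kdr window held 0. The Stab2 match lies inside the gene as deposited, in the bases that are not shown. In the other two windows with an entry, Emcn held 2 ETS matches and 1 Sox match, and Tek held 1 Sox match and no ETS match. No match to the Gata core was found in the 5 windows. Of all 32851 windows of the table, 29.5% held an ETS match, 9.99% a Gata match and 9.42% a Sox match. A match describes the letters of the window and does not show a bound site.

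Levels were also taken per kilobase of gene length, so that genes can be compared with each other. Cdh5 led in the WT livers at 20.7 ± 0.319 CPM per kb (SD, n = 2), followed by Stab2 at 17.3 ± 1.41 and Stab1 at 14.0 ± 0.528. Oit3 (11.0 ± 0.676) and Kdr (10.1 ± 0.420) came next, and the list closed with Pecam1, Tek, Lyve1, Vwf and Emcn, the last at 0.424 ± 0.0963. With 2 WT livers, neighbours in this order did not overlap in any pair. In the TRPV4-KO livers, Cdh5 stood at rank 4 with 10.7 ± 3.46 CPM per kb (SD, n = 3), behind Stab2 (12.6 ± 2.64), Stab1 (11.4 ± 2.03) and Oit3 (11.0 ± 2.57), and these neighbours overlapped in their ranges. In the GSK219 livers Cdh5 was second at 12.6 ± 2.63, overlapping with Stab2 above it (15.7 ± 2.55) and Stab1 below it (12.5 ± 1.92). Emcn was the lowest member in all 3 groups.

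The first comparison asks whether loss of TRPV4 went with a change of the endothelial markers. The fitted level was higher in WT for 8 of the 10 markers, but 0 of 10 passed the threshold, which asked for a log2 fold change over 1 together with an adjusted p under 0.05. That threshold was passed by 0.265% of all genes tested, in either direction. At an unadjusted p under 0.05, 3 of the 10 (Cdh5, Pecam1 and Stab2) were higher in WT, against 9.50% of all genes. The median log2 fold change of the 10 was 0.35, and that of all genes tested was -0.01. The median of the 10 was 0.25 without WT replicate 1, 0.27 without TRPV4-KO replicate 2 and 0.53 without TRPV4-KO replicate 3. In bulk liver RNA, fewer endothelial cells and less of the RNA per cell cannot be told apart.

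**Figure D1:**
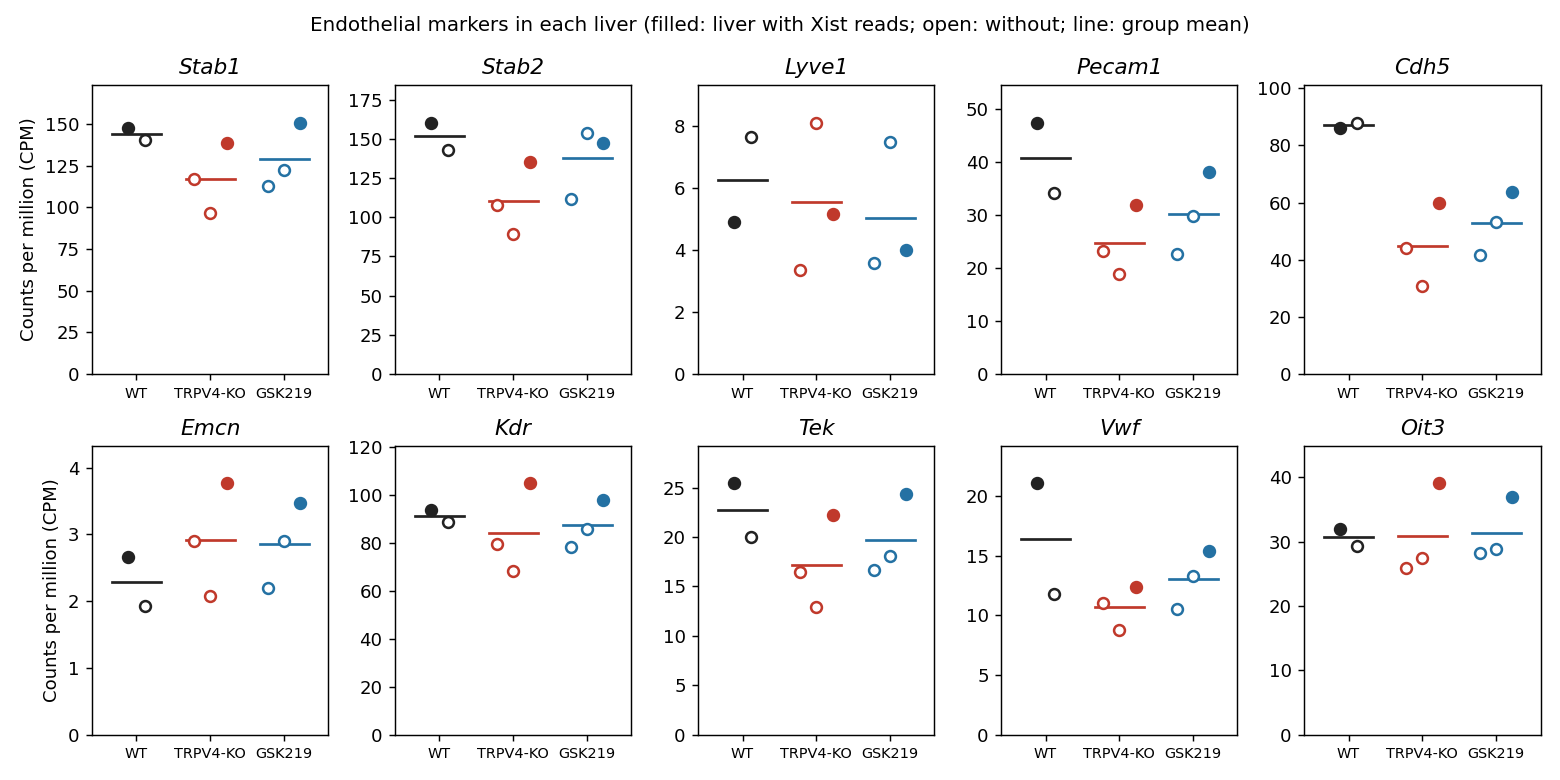
Level of each of the 10 endothelial markers in CPM (vertical axis, from 0) in every WT, TRPV4-KO and GSK219 liver. Points are livers, filled where Xist reads were present, and lines are group means. The 2 WT livers lie at 86.0 and 87.9 CPM for Cdh5, above all 6 other livers, whereas the groups overlap for most of the other markers.

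The scavenger and hyaluronan receptors come first. Stab2 (chr10:86841198-87008025, minus strand) encodes stabilin-2, which clears hyaluronan from the blood. It was measured at 160 and 143 CPM in the WT livers, at 108, 89.1 and 135 CPM in the TRPV4-KO livers and at 112, 153 and 147 CPM in the GSK219 livers. Both WT livers were above all TRPV4-KO livers, while 2 of the 3 GSK219 livers lay within the WT range. The log2 fold change was 0.45 against TRPV4-KO (SE 0.20, unadjusted p = 0.0491, adjusted p = 0.289 by edgeR) and 0.14 against GSK219 (SE 0.20, adjusted p = 0.929), where it ran from 0.012 (without GSK219 replicate 1) to 0.23 (without GSK219 replicate 2). Stab1 (chr14:31139013-31168641, minus strand) encodes stabilin-1, a scavenger receptor that macrophages also make. Its levels were 148 and 140 CPM in WT, 117, 96.7 and 138 CPM in TRPV4-KO and 113, 123 and 151 CPM in GSK219 livers. The WT and TRPV4-KO livers did not overlap, though the gap was under 2 CPM, and the highest value of all was a GSK219 liver. Fitted log2 fold changes were 0.30 (SE 0.18, adjusted p = 0.434) and 0.16 (SE 0.18, adjusted p = 0.899). The first was 0.17 without TRPV4-KO replicate 2, and the second ran from 0.075 (without GSK219 replicate 1) to 0.29 (without GSK219 replicate 3). Lyve1 (chr7:110850607-110863239, minus strand), a hyaluronan receptor of sinusoidal and lymphatic endothelium, was low, with 53 to 131 counts per library. It measured 4.89 and 7.63 CPM in WT, 3.35, 8.10 and 5.15 CPM in TRPV4-KO and 3.59, 7.49 and 4.00 CPM in GSK219 livers. The groups overlapped throughout, and the highest liver of each group was its replicate 2. The 95% interval of the log2 fold change ran from -0.83 to 1.19 against TRPV4-KO and from -0.70 to 1.33 against GSK219.

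Among the junction and surface glycoproteins, Cdh5 (chr8:104101625-104144511, plus strand) showed the widest separation of groups. Cdh5 encodes VE-cadherin, the adhesion molecule that joins endothelial cells to each other. The WT livers measured 86.0 and 87.9 CPM, the TRPV4-KO livers 44.0, 30.8 and 59.9 CPM, and the GSK219 livers 41.7, 53.2 and 63.8 CPM. Both WT livers were above all 6 other livers, and the TRPV4-KO and GSK219 ranges overlapped. The log2 fold change of WT over TRPV4-KO was 0.95 (SE 0.26, 95% interval 0.35 to 1.56, unadjusted p = 0.00654, adjusted p = 0.155 by edgeR), which corresponds to 1.94-fold. Against GSK219 it was 0.72 (SE 0.27, 95% interval 0.11 to 1.32, unadjusted p = 0.0259, adjusted p = 0.566). Neither passed the adjusted threshold. Without TRPV4-KO replicate 3 the first comparison gave 1.22 with an adjusted p of 0.0298, past the threshold, and across the alternatives that left out 1 liver the adjusted p ran from 0.0298 to 0.603.

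Pecam1 (chr11:106654217-106750628, minus strand) encodes PECAM-1, or CD31, found at endothelial junctions and on platelets and leukocytes. It measured 47.4 and 34.2 CPM in WT, 23.1, 18.9 and 31.8 CPM in TRPV4-KO and 22.7, 29.7 and 38.1 CPM in GSK219 livers. The WT livers were above all TRPV4-KO livers but not above all GSK219 livers. The log2 fold changes were 0.73 (SE 0.27, unadjusted p = 0.0285, adjusted p = 0.235) and 0.43 (SE 0.28, adjusted p = 0.758), and the second was 0.17 without WT replicate 1 and 0.26 without GSK219 replicate 1. Emcn (chr3:137341067-137432185, plus strand), which encodes the surface sialomucin endomucin of capillaries and veins, had only 32 to 65 counts per library. Its levels were 2.66 and 1.92 CPM in WT, 2.91, 2.07 and 3.76 CPM in TRPV4-KO and 2.20, 2.90 and 3.47 CPM in GSK219 livers. The groups overlapped, with log2 fold changes of -0.35 (SE 0.35, adjusted p = 0.664) and -0.32 (SE 0.35, adjusted p = 0.899). The first was -0.58 without WT replicate 1 and -0.12 without WT replicate 2, and the second -0.58 and -0.11.

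The receptor tyrosine kinases follow. Kdr (chr5:75932827-75978458, minus strand) encodes VEGFR2, the main signaling receptor for VEGF-A. It measured 93.8 and 88.4 CPM in WT, 79.5, 68.3 and 105 CPM in TRPV4-KO and 78.3, 85.8 and 97.7 CPM in GSK219 livers. The highest liver was TRPV4-KO replicate 3 and the groups overlapped. The log2 fold change against TRPV4-KO was 0.11 with a 95% interval from -0.30 to 0.53, and that against GSK219 was 0.06 with an interval from -0.36 to 0.48. Tek (chr4:94739289-94874976, plus strand) encodes TIE2, the angiopoietin receptor. Its levels were 25.4 and 20.0 CPM in WT, 16.5, 12.9 and 22.2 CPM in TRPV4-KO and 16.7, 18.1 and 24.4 CPM in GSK219 livers. The livers overlapped in both comparisons, and the log2 fold changes were 0.40 (SE 0.25, adjusted p = 0.459) and 0.20 (SE 0.25, adjusted p = 0.912). When single livers were left out, the first ran from 0.23 (without TRPV4-KO replicate 2, or without WT replicate 1) to 0.63 (without TRPV4-KO replicate 3), and the second from 0.017 (without WT replicate 1) to 0.39 (without GSK219 replicate 3).

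Of the secreted proteins, Vwf (chr6:125546774-125686679, plus strand) encodes von Willebrand factor, which captures platelets at injured vessel walls and is also made by megakaryocytes. It measured 21.0 and 11.8 CPM in WT, 11.0, 8.75 and 12.4 CPM in TRPV4-KO and 10.5, 13.3 and 15.4 CPM in GSK219 livers. The WT livers lay far apart, and only WT replicate 1 stood above the rest. The log2 fold change against TRPV4-KO was 0.61 (SE 0.28, unadjusted p = 0.0550, adjusted p = 0.305), and 0.15 to 0.99 when single livers were left out, lowest without WT replicate 1. Against GSK219 it was 0.33 (SE 0.28, adjusted p = 0.842), and it turned to -0.16 without WT replicate 1. Oit3 (chr10:59422958-59441778, minus strand), a secreted zona pellucida domain protein of sinusoidal endothelium, was nearly level. It measured 32.0 and 29.3 CPM in WT, 25.9, 27.5 and 39.0 CPM in TRPV4-KO and 28.3, 28.8 and 36.9 CPM in GSK219 livers, with log2 fold changes of -0.01 (95% interval -0.47 to 0.45) and -0.03 (95% interval -0.49 to 0.43).

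**Figure D2:**
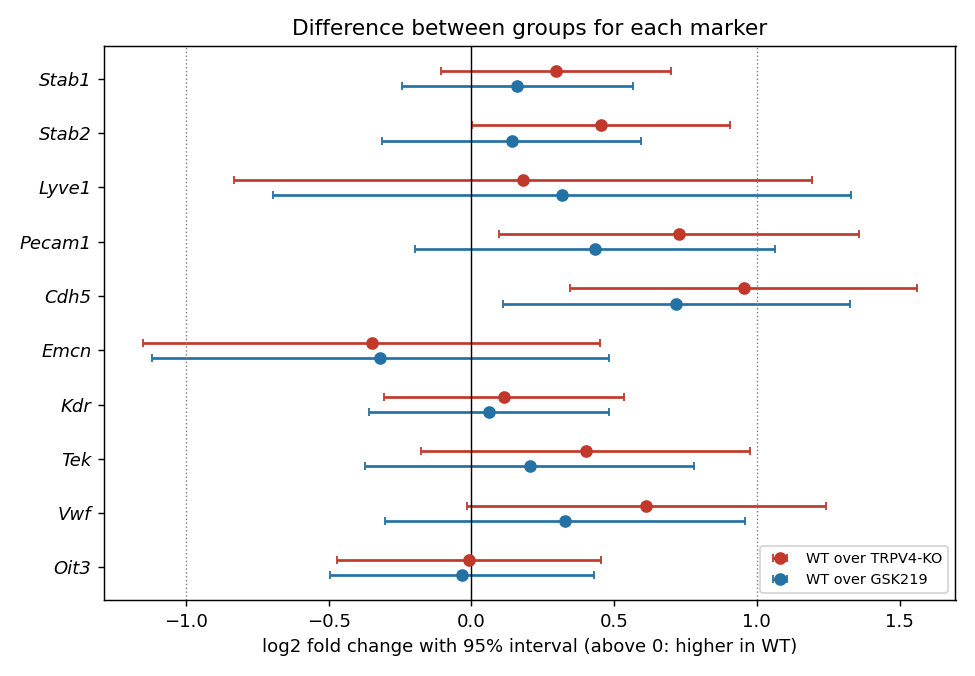
Log2 fold change of each marker (horizontal axis, above 0 is higher in WT) for WT over TRPV4-KO and WT over GSK219 livers, with 95% intervals of the edgeR fit of all 8 livers. Dotted lines mark a log2 fold change of 1 in either direction. Cdh5 lies farthest from 0, at 0.95 and 0.72, and both of its intervals stay above 0, while Oit3 lies at -0.01 and -0.03.

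Counted over the markers, every WT liver was above every TRPV4-KO liver for 4 of 10 (Stab1, Stab2, Pecam1 and Cdh5), against 17.7% of all genes tested. The levels summed over the 10 markers were 621 and 564 CPM in the WT livers, 431, 363 and 552 CPM in the TRPV4-KO livers and 429, 516 and 582 CPM in the GSK219 livers. Both WT sums lay above all TRPV4-KO sums, and GSK219 replicate 3 lay between the WT sums. The mean sum of WT over that of TRPV4-KO was 1.32, and 1.33 without Stab1, Lyve1, Pecam1 and Vwf, which blood or myeloid cells also use.

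The second comparison asks the same of the TRPV4 antagonist. Of the 10 markers, 8 had a higher fitted level in WT than in GSK219 livers, and 0 passed the adjusted threshold, as did 0% of all genes tested. At an unadjusted p under 0.05, 1 of 10 (Cdh5) was higher in WT, against 5.87% of all genes. Every WT liver was above every GSK219 liver for 1 of 10, again Cdh5, against 15.6% of all genes. The median log2 fold change of the 10 was 0.18, and that of all genes was -0.00149. When single livers were left out, the median of the 10 ran from 0.03 (without WT replicate 1) to 0.24, and it was 0.09 without GSK219 replicate 1. The mean sum of WT over that of GSK219 was 1.17. This comparison uses the same WT livers as the first, so the values stand side by side and are not independent of each other.

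TRPV4-KO and GSK219 livers were also compared directly. None of the 10 markers passed the threshold (0 of 10, against 0.0992% of all genes), and 0 of 10 had an unadjusted p under 0.05, against 6.12% of all genes in either direction. Over all genes tested, the median log2 fold change of TRPV4-KO over GSK219 was 0.01, and 52.6% of the values were positive. For the 10 markers the median was -0.17, and 8 of the 10 values were negative. The median was -0.34 without TRPV4-KO replicate 3, -0.03 without TRPV4-KO replicate 2, -0.26 without GSK219 replicate 1 and -0.01 without GSK219 replicate 3. For Cdh5 the difference was -0.24 with a 95% interval from -0.79 to 0.31, and for Stab2 it was -0.31 with an interval from -0.72 to 0.09. When single livers were left out, Cdh5 ran from -0.50 (without TRPV4-KO replicate 3) to -0.026 (without TRPV4-KO replicate 2), and Stab2 from -0.48 to -0.18.

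Because Cdh5 and Kdr are both endothelial, their counts were set against each other within each liver, a ratio that was chosen after the levels had been seen and is given without a test. There were 91.8 and 99.5 Cdh5 counts per 100 Kdr counts in the WT livers. The TRPV4-KO livers had 55.4, 45.2 and 57.2, and the GSK219 livers had 53.3, 62.0 and 65.3. The WT livers thus stood apart from all 6 other livers in this ratio. Relative to the other 9 markers summed, Cdh5 had 16.1 and 18.5 counts per 100 in WT, 11.4, 9.28 and 12.2 in TRPV4-KO and 10.8, 11.5 and 12.3 in GSK219 livers. The WT livers were also above all TRPV4-KO livers in Pecam1 per 100 Kdr, which was 50.5 and 38.6 in WT, 29.1, 27.6 and 30.4 in TRPV4-KO and 29.0, 34.6 and 39.0 in GSK219 livers. Tek per 100 Kdr was 27.1 and 22.7 in WT, 20.8, 18.9 and 21.2 in TRPV4-KO and 21.3, 21.1 and 24.97 in GSK219 livers. For both of these ratios the WT livers were above all TRPV4-KO livers, and the WT and GSK219 ranges overlapped. Stab1 per 100 Stab2 was 92.2 and 98.1 in WT, 108, 108 and 102 in TRPV4-KO and 101, 80.0 and 103 in GSK219 livers.

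**Figure D3:**
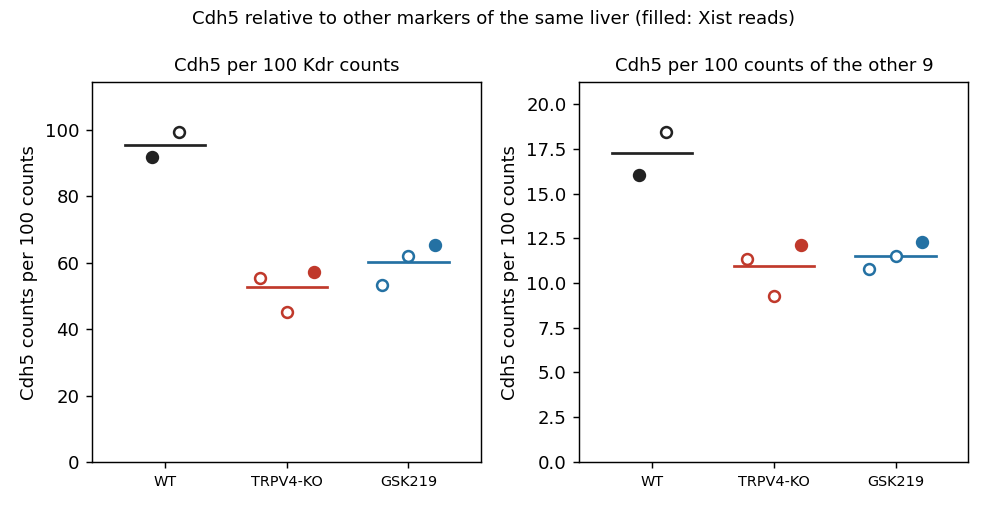
Cdh5 counts per 100 Kdr counts (left) and per 100 counts of the other 9 markers (right) in each liver, with both vertical axes from 0. Points are livers, filled where Xist reads were present, and lines are group means. The WT livers lie at 91.8 and 99.5 per 100 Kdr counts and the other 6 livers between 45.2 and 65.3.

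The markers also differed between livers of the same group. In the TRPV4-KO group, 9 of 10 markers were highest in replicate 3, the liver with Xist reads (44.6% of all genes tested), and 8 of 10 were lowest in replicate 2 (34.5% of all genes). In the GSK219 group, 8 of 10 were highest in replicate 3, also a liver with Xist reads (39.1% of all genes), and 10 of 10 were lowest in replicate 1 (35.9% of all genes). In the WT group, 8 of 10 were higher in replicate 1, the liver with Xist reads (50.4% of all genes), with Cdh5 and Lyve1 as the exceptions. The difference between livers with and without Xist reads was tested beside the groups, a test that was added after the levels had been seen. At an unadjusted p under 0.05, 8 of 10 markers were higher in the livers with Xist reads, against 13.4% of all genes, and with adjustment over all genes 1 of 10 (Pecam1) was higher, against 1.99% of all genes. Pecam1 was higher by 0.54 on the log2 scale (SE 0.12, adjusted p = 0.0456 by edgeR). The difference was 0.49 for Tek (SE 0.12, adjusted p = 0.0585) and 0.37 for Oit3 (SE 0.10, adjusted p = 0.0821). Lyve1 went the other way, at -0.40 (SE 0.34, adjusted p = 0.536). Xist reads were present in 1 of 2 WT livers and in 1 of 3 livers of each other group. With the term for Xist reads in the fit, the median log2 fold change of the 10 markers was 0.30 for WT over TRPV4-KO and 0.13 for WT over GSK219.

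**Figure D4:**
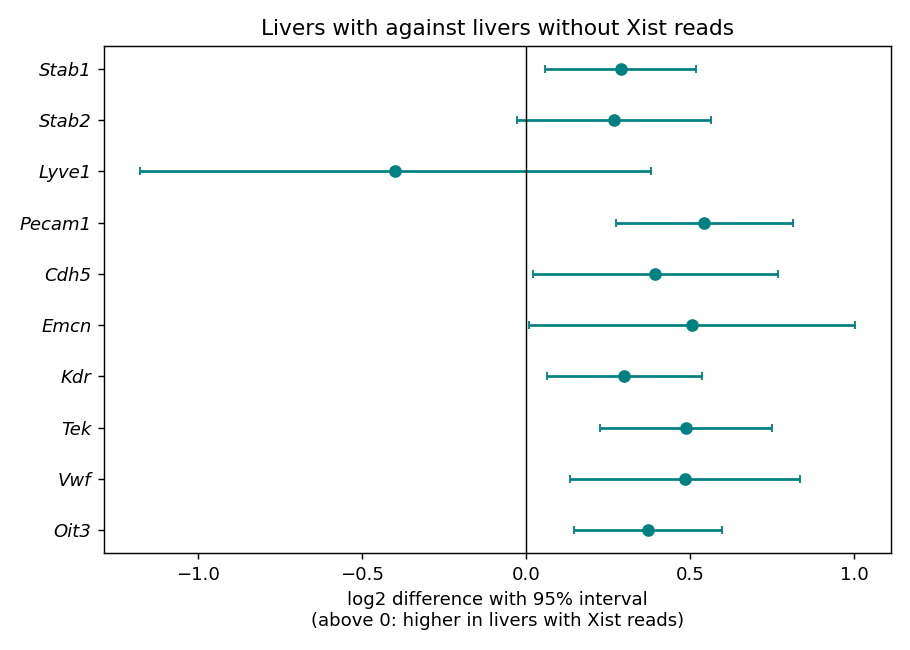
Log2 difference between the 3 livers with Xist reads and the 5 without (horizontal axis, above 0 is higher with Xist reads) for each marker, with 95% intervals, from the edgeR fit that also holds the groups. Of the 10 markers, 9 lie above 0, with Pecam1 at 0.54, and Lyve1 lies at -0.40.

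Within the livers with Xist reads, WT was above TRPV4-KO for 6 of 10 markers (Stab1, Stab2, Pecam1, Cdh5, Vwf and Tek), with 1 liver on each side, against 50.0% of all genes tested. Among the livers without Xist reads, the WT liver was above both TRPV4-KO livers for 8 of 10, all but Lyve1 and Emcn, against 40.7% of all genes tested. Against GSK219, WT was higher for 6 of 10 markers among the livers with Xist reads (50.7% of all genes tested), and for 7 of 10 among those without (37.1% of all genes tested). Cdh5, Pecam1 and Tek were higher in WT on both sides of this division and against both other groups. For Cdh5, the log2 fold change of WT over TRPV4-KO was 0.93 (adjusted p = 0.0491) with the term for Xist reads in the fit, just under the fold part of the threshold.

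Other endothelial genes, and the ligands of the VEGF and angiopoietin pathway, were described by lists of related function, several of which share genes. None of their genes passed the adjusted threshold in either comparison with WT. Over all genes tested, 9.50% against TRPV4-KO and 5.87% against GSK219 were higher in WT at an unadjusted p under 0.05, and 48.8% and 49.7% had a positive log2 fold change. Of 12 genes of sinusoidal endothelium, 10 had a higher fitted level in WT when set against TRPV4-KO, and 2 had an unadjusted p under 0.05, against 9.50% of all genes (median log2 fold change 0.17). These were Mrc1, the mannose receptor, which macrophages also carry (0.72, SE 0.21, adjusted p = 0.162), and Clec1b, a C-type lectin receptor that platelets also carry (0.75, SE 0.27, adjusted p = 0.218). The transcription factor gene Maf was at 0.43 (SE 0.23). Against GSK219 the median was 0.12, with Clec1b at 0.74 and Mrc1 at 0.55, each with an unadjusted p under 0.05 (2 of 12, against 5.87% of all genes), and with Ehd3, a gene of membrane traffic, at -0.46 (SE 0.30).

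Of 21 genes shared by all endothelium, 18 were fitted higher in WT against TRPV4-KO (median 0.31), 4 of the 21 at an unadjusted p under 0.05, against 9.50% of all genes. Rasip1, which is needed for vessel lumens, had a log2 fold change of 0.69 (SE 0.25, adjusted p = 0.221). Nos3, the endothelial nitric oxide synthase, had 0.76 (SE 0.31, adjusted p = 0.257). Cd34, a sialomucin of vessels and of blood progenitors, measured 4.82 and 2.80 CPM in WT, 1.90, 2.07 and 2.78 CPM in TRPV4-KO and 1.20, 1.21 and 1.20 CPM in GSK219 livers. Its GSK219 livers were the lowest of all, with a log2 fold change of WT over GSK219 of 1.66 (SE 0.33, unadjusted p = 0.000838, adjusted p = 0.391), from 19 or 20 counts per GSK219 library. Against GSK219 the list's median was 0.19, with Cd34 the only 1 of 21 at an unadjusted p under 0.05, against 5.87% of all genes, and the endothelial genes Ecscr and Myct1 were at 0.78 (SE 0.38) and 0.57 (SE 0.30).

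Genes that mark zones along the sinusoid had a median of 0.50 against TRPV4-KO and 0.14 against GSK219, with 4 and 1 of 11 higher in WT at an unadjusted p under 0.05, against 9.50% and 5.87% of all genes. The list pools genes of different zones, and they went both ways. Of the 11, 8 were fitted higher and 3 lower in WT against TRPV4-KO, and 7 higher and 4 lower against GSK219. Thbd, which encodes thrombomodulin, an anticoagulant receptor of the vessel wall, measured 23.8 and 18.8 CPM in WT, 7.08, 4.21 and 5.15 CPM in TRPV4-KO and 8.12, 9.73 and 18.0 CPM in GSK219 livers. Both WT livers were above all others, with GSK219 replicate 3 close to them. The log2 fold change was 1.96 against TRPV4-KO (SE 0.35, adjusted p = 0.0766) and 0.83 against GSK219 (SE 0.34, adjusted p = 0.586). Ntn4, a netrin of the basement membrane, stood at 1.20 (SE 0.40, adjusted p = 0.205) and Kit, the stem cell factor receptor, at 0.78 (SE 0.28, adjusted p = 0.218) against TRPV4-KO. Against GSK219, Ltbp4, a binding protein of latent TGF-beta, was at -0.34 (SE 0.15) and Cdh13, or T-cadherin, at 0.60 (SE 0.31).

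Of the genes known to respond to blood flow, against TRPV4-KO 4 of 6 were higher in WT at an unadjusted p under 0.05 (median 0.73, 9.50% of all genes), and 2 of 6 against GSK219 (median 0.44, 5.87% of all genes). Those against TRPV4-KO were Thbd, Nos3, Klf4 and Piezo1, and those against GSK219 were Thbd and Piezo1. Klf4, a transcription factor induced by shear stress, was at 1.01 against TRPV4-KO (SE 0.34, adjusted p = 0.205) and at 0.44 against GSK219 (SE 0.34, adjusted p = 0.814). Piezo1, a mechanosensitive channel, measured 23.6 and 19.2 CPM in WT, 11.4, 11.3 and 17.6 CPM in TRPV4-KO and 10.0, 14.3 and 16.4 CPM in GSK219 livers. Both WT livers were above all 6 other livers, and the TRPV4-KO and GSK219 ranges overlapped, with log2 fold changes of 0.67 (SE 0.26, adjusted p = 0.246) and 0.66 (SE 0.26, adjusted p = 0.571). The mice called WT carry loxP sites in this gene, and the GSK219 livers are titled as WT too. Whether the TRPV4-KO mice carry these sites is not given in the sources used here, and the part of the sites was not tested.

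Genes of endothelial activation gave 4 of 10 tested at an unadjusted p under 0.05 in each comparison, all higher in WT, with medians of 0.83 and 0.64, against 9.50% and 5.87% of all genes. Vcam1, a leukocyte adhesion molecule also found on Kupffer cells, measured 59.3 and 38.5 CPM in WT, 23.0, 13.5 and 25.8 CPM in TRPV4-KO and 13.5, 22.7 and 20.1 CPM in GSK219 livers. The log2 fold changes were 1.23 (SE 0.32, adjusted p = 0.141) and 1.38 (SE 0.32, adjusted p = 0.417). Icam1, another adhesion molecule, was at 0.76 (SE 0.16, adjusted p = 0.104) and 0.66 (SE 0.16, adjusted p = 0.429). Lrg1, a secreted glycoprotein that hepatocytes also make in the acute phase response, was at 0.89 (SE 0.18, adjusted p = 0.0953) and 0.65 (SE 0.18, adjusted p = 0.465), from 1159 to 2494 CPM.

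The VEGF and angiopoietin pathway, which holds the ligands of the kinases above, had medians below 0. Its 12 tested genes had a median of -0.10 against TRPV4-KO, with 6 on each side of 0, and -0.07 against GSK219. Against TRPV4-KO, the 2 genes at an unadjusted p under 0.05 were ligands, and both were lower in WT (2 of 12, against 7.61% of all genes tested). Against GSK219 it was 0 of 12 in either direction, and 1242 of all 15118 genes tested. Vegfa, the principal ligand of VEGFR2, measured 160 and 169 CPM in WT, 215, 263 and 238 CPM in TRPV4-KO and 203, 177 and 198 CPM in GSK219 livers. All 6 other livers were above both WT livers, with log2 fold changes of -0.54 (SE 0.13, unadjusted p = 0.00262, adjusted p = 0.119) and -0.23 (SE 0.13, adjusted p = 0.706). Vegfb was at -0.42 against TRPV4-KO (SE 0.18, adjusted p = 0.279), Vegfd at -0.42 and -0.62 (SE 0.33 in both), and the orphan receptor gene Tie1 at 0.14 against GSK219 (SE 0.14). Of the 4 genes of lymphatic endothelium, 2 passed the filter, with at most 23 counts in any library. Mmrn1 was at 1.06 (SE 1.06) and 1.30 (SE 1.08) and Pdpn at -0.10 (SE 0.64) and 1.35 (SE 0.70), and neither had an unadjusted p under 0.05.

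**Figure D5:**
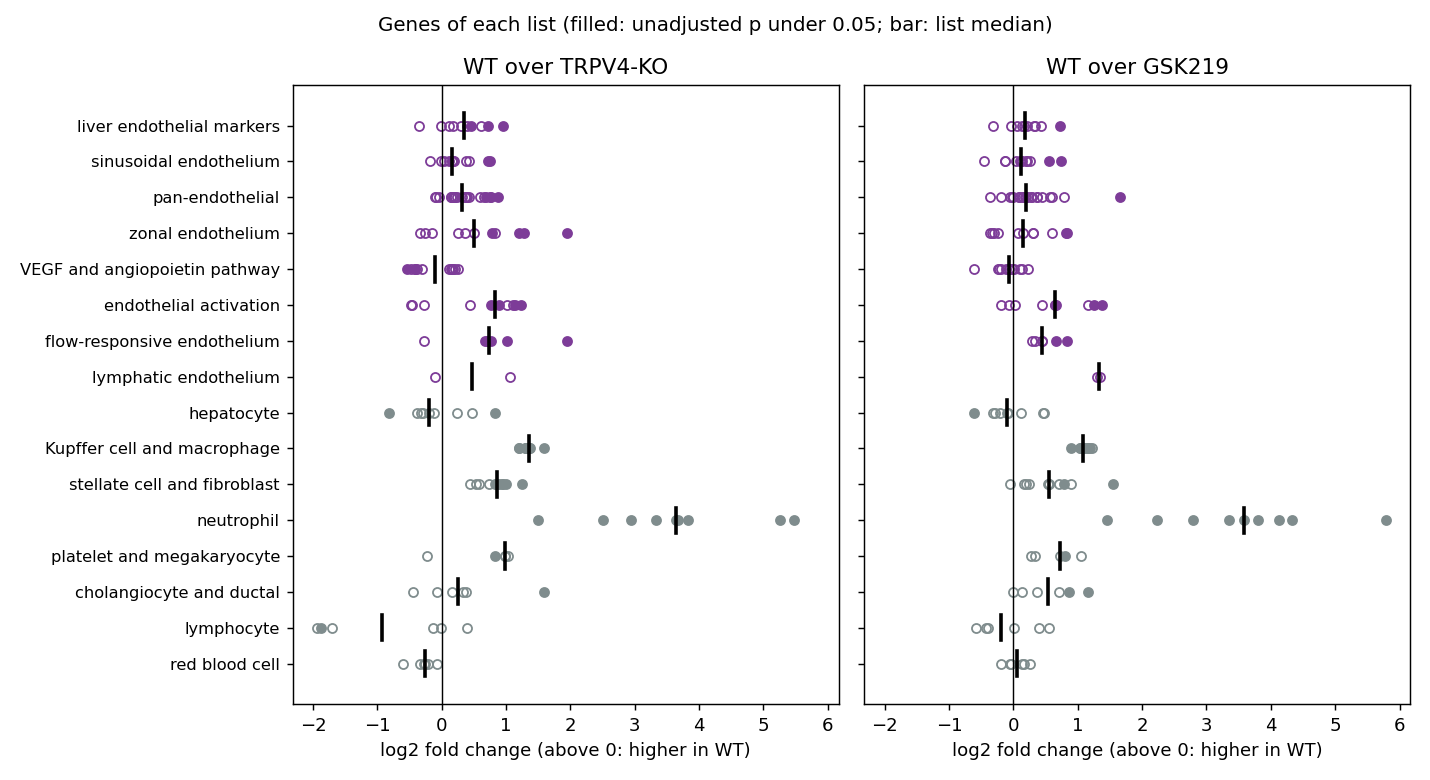
Log2 fold change (horizontal axis, above 0 is higher in WT) of each tested gene in the endothelial lists (purple) and the lists of other cell types (grey), for WT over TRPV4-KO (left) and WT over GSK219 (right). Filled points have an unadjusted p under 0.05 and black bars are list medians. The 10 liver endothelial markers have medians of 0.35 and 0.18, below those of the Kupffer cell list at 1.36 and 1.09 and of the neutrophil list at 3.64 and 3.58.

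Levels of markers of other cell types follow, with the list sums given as a description. Summed levels of 11 Kupffer cell and macrophage markers were 1928 to 2193 CPM in WT, 530 to 1159 CPM in TRPV4-KO and 558 to 1321 CPM in GSK219 livers, and 10 and 9 of the 11 were higher in WT at an unadjusted p under 0.05, against 9.50% and 5.87% of all genes. Summed levels of 11 stellate cell and fibroblast markers were 440 to 523 CPM in WT, 169 to 384 CPM in TRPV4-KO and 252 to 428 CPM in GSK219 livers, and by the same measure 4 and 2 of the 11 were higher in WT. The 10 neutrophil markers summed to 70.6 to 83.9 CPM in WT, 6.80 to 17.4 CPM in TRPV4-KO and 5.98 to 15.8 CPM in GSK219 livers. At an unadjusted p under 0.05, 9 of the 9 tested were higher in WT in each comparison, against 9.50% and 5.87% of all genes. A gene could pass the filter on low counts through the 2 WT livers alone, so the choice of these 9 is not independent of their level in WT. Of these 9, 2 (S100a8 and Cxcr2) passed the adjusted threshold against TRPV4-KO, where 0.265% of all genes did, and 0 passed it against GSK219. Platelet markers, which bear on Vwf and Pecam1, summed to 25.1 to 32.4 CPM in WT, 9.39 to 22.3 CPM in TRPV4-KO and 10.6 to 22.9 CPM in GSK219 livers, with Gp1bb at 0 counts in every liver. Hepatocyte markers summed to 63238 to 75323 CPM in WT, 83068 to 103525 CPM in TRPV4-KO and 85354 to 92696 CPM in GSK219 livers. The markers went both ways, with 3 of 9 fitted higher in WT and 6 lower in each comparison. Of all genes tested, 48.8% and 49.7% were fitted higher in WT. Duct cell markers fitted higher in WT were 4 of the 6 tested against TRPV4-KO and 6 of 6 against GSK219. The ranges were 78.9 to 109, 64.6 to 73.6 and 56.7 to 78.2 CPM for duct cells, 1.92 to 5.38, 3.79 to 13.3 and 3.32 to 4.40 CPM for lymphocytes, and 366 to 555, 511 to 549 and 334 to 523 CPM for red blood cells, in the same order of groups. Pancreatic acinar markers reached at most 1.02 CPM, and Cpa1, Prss2, Pnlip and Cela3b were at 0 counts in the WT and TRPV4-KO livers. The part of these other cells in the endothelial levels was not tested. Other annotated genes lie across some members, and reads of the 2 cannot be told apart without strand: Nt5dc2 overlaps Stab1 and had at most 95 counts, the 5 genes that overlap Stab2 had at most 12, and the 1 that overlaps Cdh5 had at most 1.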

How the data were processed

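Liver RNA had been extracted with the Ribopure kit per the labels, and the liver libraries were made by Novogene. The authors deposited raw counts of reads per gene for each liver. The submitters' processing notes name Trim Galore and HISAT2 2.0.5, whereas the counting tool and whether strand was used are not given in the sources used here. Gene coordinates and lengths were deposited with the counts, and the coordinates of all 10 members were identical in GENCODE M21 (GRCm38). The table has 7 more count columns whose names fit none of the samples, and these were left out. A second table, on pancreatic stellate cells, holds the authors' own fold changes and p-values beside normalized values and was not used.

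Livers were grouped by their titles (1 GSK219 title spells the drug GSRK219). The tests used edgeR 4.0.16 under R 4.3.3. Factors were set by TMM, genes were kept by edgeR's expression filter at a minimum count of 10, and the quasi-likelihood model (robust) held all 8 livers, with Benjamini-Hochberg adjustment over 15118 genes. The common threshold was an adjusted p under 0.05 with a log2 fold change over 1. SE and 95% intervals come from the fit. Totals ran from 15567031 to 17395299 counts. Livers of 1 group differed beyond counting error, with a chi-square per degree of freedom of 17.6 to 117 over genes, and the biological coefficient of variation of the fit was 28.3%.

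Named genes were all 10 members, Trpv4, and of each endothelial list the 3 tested genes with the smallest p in each comparison with WT. S100a8, Cxcr2, Gp1bb, Xist and the acinar and overlapping genes fall outside this rule, having been picked with their values in view. Of the pathway list, Figf is an older name of Vegfd. Members and lists were chosen with earlier results of these data known. Alternatives were DESeq2 1.42.0, RLE normalization, no filter, a block for the replicate number, no fold threshold, a fit restricted to the 2 groups at hand, a term for Xist reads, and each liver left out. The test of the Xist term itself and the ratios within a liver were chosen later, with the levels in view.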

Additional observations from a re-analysis of the deposited data

How the results depend on the processing

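The number of endothelial markers past the threshold stayed at 0 in the WT and GSK219, and in the TRPV4-KO and GSK219 comparisons, under every alternative run. Between WT and TRPV4-KO livers it was 0 to 1 when single livers were left out, and 1 with the replicate block. The 1 marker was Cdh5 both times, at 1.22 without TRPV4-KO replicate 3 (adjusted p = 0.0298) and at 1.18 with the replicate block (adjusted p = 0.0383), and its adjusted p ran from 0.0203 (DESeq2, log2 fold change 0.96) to 0.603 (without WT replicate 1) over all alternatives. Correlations of the deviations of same-numbered livers ran from -0.484 to 0.58. Their sign followed the Xist division. Pairs of livers alike in Xist reads ran from 0.152 to 0.63, and all other pairs were negative. Whether replicate numbers pair the livers cannot be told from these correlations. The median log2 fold change of the markers ran from 0.25 to 0.53 for WT over TRPV4-KO, 0.03 to 0.24 for WT over GSK219 and -0.34 to -0.01 for TRPV4-KO over GSK219 when single livers were left out. With the replicate block it was 0.50 for WT over TRPV4-KO and 0.29 for WT over GSK219.

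The number of all genes past the threshold moved far more, from 40 between WT and TRPV4-KO to 489 with DESeq2, 140 without a filter, 429 with the replicate block, 20 with only the 2 groups compared, 325 with the Xist term, and 3 (without WT replicate 2) to 722 (without TRPV4-KO replicate 3) when single livers were left out. Without WT replicate 1 it was 4. For WT and GSK219 the count of 0 became 74, 8, 9, 2 and 4 under the same alternatives, and 0 to 2 when single livers were left out. For TRPV4-KO and GSK219 the count of 15 became 93 with DESeq2, 38 without a filter, 34 with the Xist term, and 8 to 79 when single livers were left out (8 without TRPV4-KO replicate 1, 79 without replicate 3). The cause was not tested.

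Some values changed sign, among them Vwf (0.33) and Lyve1 (0.32) for WT over GSK219, which turned to -0.16 without WT replicate 1 and to -0.047 without WT replicate 2, respectively. Oit3 between WT and TRPV4-KO became 0.17 with the replicate block and 0.011 with only the 2 groups compared, and between WT and GSK219 it became 0.13 with the replicate block. When single livers were left out, WT over TRPV4-KO ran from -0.12 to 0.20 for Oit3, -0.17 to 0.56 for Lyve1 and -0.017 to 0.30 for Kdr. WT over GSK219 ran from -0.10 to 0.10 for Oit3, -0.047 to 0.72 for Lyve1, -0.011 to 0.15 for Kdr and -0.16 to 0.68 for Vwf. TRPV4-KO over GSK219 ran from -0.23 to 0.11 for Oit3, -0.24 to 0.54 for Lyve1, -0.24 to 0.078 for Kdr and -0.20 to 0.22 for Emcn. With 2 WT livers, each WT value weighs heavily.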
